A study of Mus musculus with 21 samples.

Results

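The comparison described here set mice that carry a switched-off TDP-43 transgene against mice of the same line with no transgene. Of the 21 arrays of the series, 10 entered it, chosen by title and line label. They were 4 arrays titled monogenic, whose mice carried the transgene for TDP-43 with a defective nuclear localization signal (dNLS) but not the tTA transgene, and 6 arrays of nontransgenic mice with the line label NLS4. Each array measured cerebral cortex, and all mice had the mixed background C57BL/6J x C3HeJ. The monogenic group held 3 males and 1 female, and the nontransgenic group 4 males and 2 females by label. All groups were sampled 2 weeks after doxycycline was taken out of the diet. The labels give no age, no promoter for either transgene and no statement that the mice were littermates. The dNLS transgene is represented by this 1 line, so its place of insertion and the transgene cannot be told apart.

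The other groups of the series were 5 dNLS bigenic mice with both transgenes, 4 bigenic mice that express wild-type TDP-43 (line WT12) and 2 nontransgenic mice of line WT12. They are used below only as reference points. No group carried tTA alone.

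TDP-43, the product of the gene Tardbp, is an RNA-binding protein of the nucleus that regulates splicing and holds its own mRNA level in check. In a tetracycline-off system the transgene sits behind a promoter that is read only when the transactivator tTA binds it. A mouse with the transgene but without tTA should therefore not express it, and any expression that does occur is called leak. Mice with the silent transgene and mice without one also show how far cortices of such mice differ from each other when nothing drives the transgene.

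The arrays differed most in the 3' bias of their control probe sets. The labelling primes cDNA at the 3' end, so the excess, on the log2 scale, of a 3' control probe set over the 5' control probe set of the same transcript rises as transcripts are shortened. For beta-actin that excess was 1.56, 3.13, 1.72 and 1.57 log2 units in monogenic mice 1 to 4. In nontransgenic mice 1 to 6 it was 2.53, 3.27, 2.16, 4.70, 1.46 and 8.20. Nontransgenic mice 4 and 6 lay above all others, and the remaining arrays of both groups overlapped. The group means, 2.00 ± 0.76 (SD, n = 4) and 3.72 ± 2.46 (SD, n = 6), did not differ past the threshold (two-sided exact permutation test, p = 0.214, Benjamini-Hochberg adjusted p = 0.386 over 3 control measures, where 0.0095 is the smallest p the design allows). The submitters gave an RNA integrity number of 7 or more for all samples.

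The first principal component of the 10 arrays held 59.9% of the variance and followed this measure closely. Pearson's r was 0.999 and Spearman's rho 0.988 over 10 arrays (permutation p = 1e-05 for each, the smallest that 100000 resamples can give). Without nontransgenic mice 4 and 6, r was 0.992, and within the 6 nontransgenic mice it was 0.999. Neither the first nor the second component separated the groups (exact permutation test, adjusted p = 0.505 and 0.643). Counts of genes, most leak readouts and several named genes are therefore also given without nontransgenic mice 4 and 6.

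**Figure D1:**
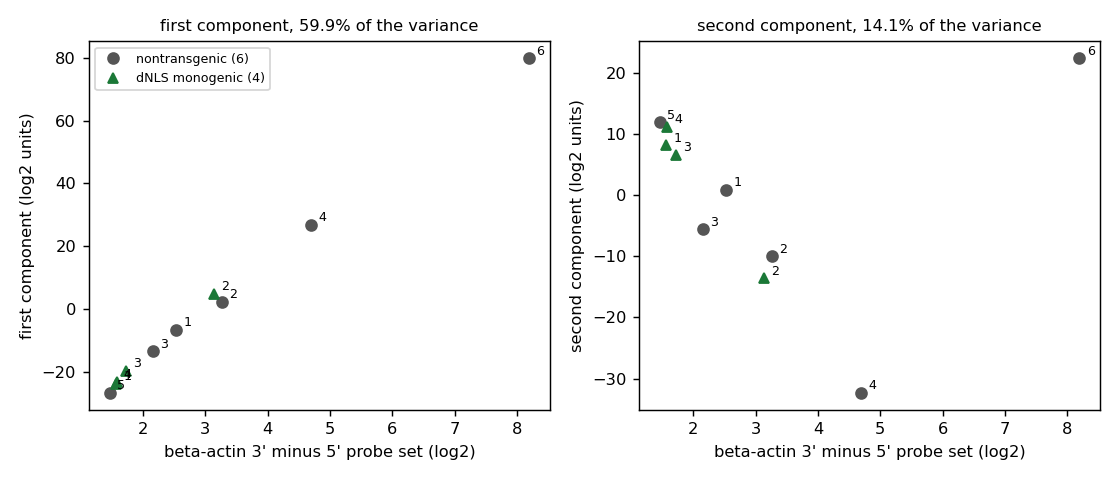
First and second principal component of the 10 arrays (vertical axes) against the beta-actin 3' minus 5' difference of the same array in log2 units (horizontal axes), with the mouse number beside each point. Monogenic and nontransgenic arrays lie on 1 line in the first component, which ends at nontransgenic mice 4 and 6.

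Tardbp, the endogenous gene, was read by 4 probe sets, called A to D here in order of their mean level. Levels are on the log2 scale, so a difference of 1 is a doubling. Probe set B read 10.89, 10.45, 10.69 and 10.49 in monogenic mice 1 to 4. It read 10.77, 10.59, 10.79, 10.86, 10.77 and 11.07 in nontransgenic mice 1 to 6, so the groups overlapped. The 2 WT12 nontransgenic mice read 10.94 and 10.93, above all 4 monogenic mice. The monogenic minus nontransgenic difference was -0.18 (95% interval -0.38 to 0.01, limma adjusted p = 0.743) for Tardbp probe set B. In the 5 dNLS bigenic mice this probe set lay far lower, between 9.38 and 9.62, against 10.45 to 10.76 in the 4 WT bigenic mice. The difference of dNLS bigenic from WT bigenic mice, called the bigenic difference below, was -1.13 ± 0.10 (SE, limma adjusted p = 5.1e-06). The lowest monogenic array, at 10.45, was thus above the highest dNLS bigenic array, at 9.62.

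Tardbp probe set A read 10.96 to 11.14 in monogenic mice and 10.89 to 11.18 in nontransgenic mice. Its difference was -0.0023 (95% interval -0.13 to 0.12). Probe set D read 5.83, 5.26, 5.94 and 5.94 in monogenic mice and 5.31, 5.19, 5.73, 5.28, 5.99 and 5.10 in nontransgenic mice 1 to 6. Monogenic mouse 2 lay with the lower nontransgenic mice and the other 3 with the higher ones, and the dNLS bigenic mice read 6.06 to 7.10, above both groups. Probe sets C and D gave differences of 0.38 (95% interval -0.13 to 0.90) and 0.34 (95% interval -0.10 to 0.77). For both the lowest reading was that of nontransgenic mouse 6, at 6.84 and 5.10. Probe set C read 7.03 to 7.66 in dNLS bigenic mice, within the range of the nontransgenic mice. The differences of A, B, C and D without nontransgenic mice 4 and 6 were -0.044, -0.10, 0.099 and 0.19. None of the 4 probe sets passed the threshold, an adjusted p under 0.05. With array quality weights, probe set D did, with 0.52 ± 0.15 (SE, limma adjusted p = 0.038). With the beta-actin difference as a covariate, probe set C came to -0.0035. Which probe sets can also bind mRNA of a TDP-43 transgene was not tested.

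Prnp, the prion protein gene, served as another leak readout, because a family of tetracycline-responsive vectors carries mouse prion gene sequence. Whether this transgene was built in such a vector is not in the labels. Its probe set of higher level read 13.49, 13.51, 13.53 and 13.55 in monogenic mice 1 to 4. It read 13.49, 13.48, 13.54, 13.51, 13.38 and 13.52 in nontransgenic mice 1 to 6, and 13.67 to 13.97 in dNLS bigenic mice. The highest reading of the 10 mice without tTA, 13.55, lay below the lowest dNLS bigenic one. The monogenic difference was 0.024 ± 0.041 (SE, 95% interval -0.06 to 0.11), beside a bigenic difference of 0.48 ± 0.05 over WT bigenic mice, which read 13.33 to 13.39. The second Prnp probe set read 10.79 to 11.44 in monogenic mice, 8.66 to 11.31 in nontransgenic mice and 12.33 to 12.63 in dNLS bigenic mice. Its difference was 0.60 (95% interval -0.18 to 1.38, limma adjusted p = 0.743), beside a bigenic difference of 1.06. Its lowest value again came from nontransgenic mouse 6, and the other 5 nontransgenic mice read 10.50 to 11.31, overlapping the monogenic mice. Without nontransgenic mice 4 and 6 the Prnp probe set of higher level came to 0.043. For the second probe set that difference is not given, but nontransgenic mice 1, 2, 3 and 5 read 10.97, 10.85, 11.31 and 11.31.

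**Figure D2:**
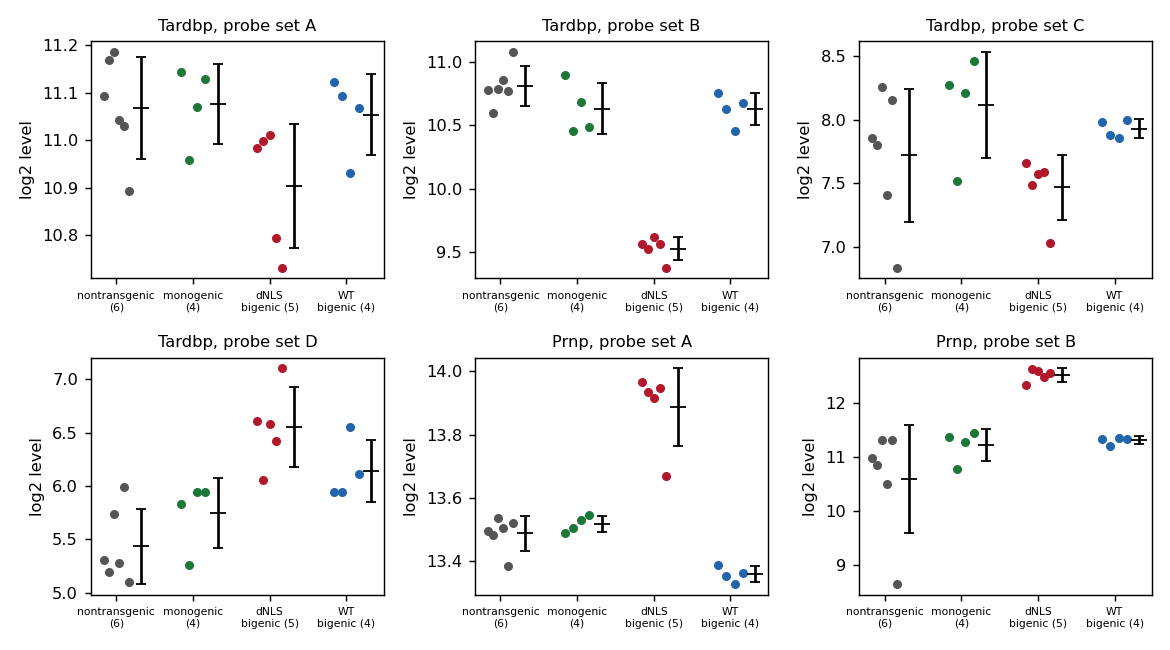
Level of the 4 Tardbp and 2 Prnp probe sets in log2 units (vertical axes, not starting at 0), by group; probe sets are lettered by falling mean level, points are mice and bars give the mean ± SD. In Tardbp probe set B and Prnp probe set A the monogenic mice lie with the nontransgenic mice and apart from the 5 dNLS bigenic mice.

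Across all genes, no difference between monogenic and nontransgenic mice passed the test. Of 12393 genes, 0 had a limma adjusted p under 0.05 (0%), and the lowest adjusted p was 0.732. At an unadjusted p under 0.05 there were 533 genes (4.3%), 177 higher and 356 lower in monogenic mice. That split differed between scalings of the arrays. After each array was centred on its median, 350 of 546 such genes were higher. After quantile normalization 235 of 518 were higher. There were 196 such genes without nontransgenic mice 4 and 6, 71 higher and 125 lower. With array quality weights, which ranged from 0.03 for nontransgenic mouse 6 to 8.54 for monogenic mouse 3, 1142 genes passed, 377 higher and 765 lower. The same fit without weights called 1460 genes (11.8%) between dNLS bigenic and WT bigenic mice, a comparison of other arrays whose spread and sex term were estimated over all 21.

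The intervals say how large a silent difference could be. Of 8549 genes above the lowest value on all 10 arrays, 7416 had a 95% interval that stayed within 1 log2 unit either way, and 4683 had one within 0.5. The median half-width was 0.30. For the other 1133 genes the interval reached 1 log2 unit or more on at least 1 side. An estimated difference of 1 or more was reached by 105 genes (0.847%), 61 higher and 44 lower. In 65 of these genes nontransgenic mouse 6 lay outside the range of the other 9 arrays, and without nontransgenic mice 4 and 6 the number was 29, of which 21 were among the 105.

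No gene of the 12393 passed the test, and the genes with the largest difference between dNLS and WT bigenic mice were no exception. The 20 genes highest and the 20 lowest in dNLS bigenic against WT bigenic mice were followed in the 10 arrays without tTA. Both bigenic groups express a TDP-43 transgene, so these lists hold differences between dNLS and wild-type TDP-43 and not changes from the silent state. Bst2, an interferon-induced gene of the lower list chosen after its values were seen, read 2.75 to 4.49 in dNLS bigenic and 4.39 to 8.17 in WT bigenic mice, with a mean of 4.03 in nontransgenic mice. Of the 40, 0 passed the threshold, 0 had an unadjusted p under 0.05 and 0 separated the monogenic from the nontransgenic arrays. Over all 12393 genes these counts were 0, 533 (4.3%) and 20. The median difference was -0.21 for the higher list and -0.25 for the lower list, and 32 of the 40 genes were below 0. Over all genes the median was 0, with 3004 genes at the lowest value on all 10 arrays, and 5297 genes were below and 3405 above 0. Without nontransgenic mice 4 and 6 the medians were -0.06 and -0.19. For 40 of 40 genes the bigenic difference lay outside the 95% interval of the monogenic difference. Over all genes this held for 4356 of 12393. The lists were chosen for the size of the bigenic difference, so its values are a description.

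Etaa1, a replication stress factor, read 4.91 to 5.73 in monogenic mice and 4.34 to 6.06 in nontransgenic mice, with 7.27 to 7.80 in dNLS bigenic mice. Its monogenic difference was 0.13 (95% interval -0.45 to 0.70) and the bigenic one 2.87. Tnfrsf12a, the receptor for the cytokine TWEAK, read 3.26 to 3.59 and 3.34 to 4.51 in monogenic and nontransgenic mice and 6.42 to 7.32 in dNLS bigenic mice. Opn3, an opsin expressed in brain, read 6.76 to 7.18 and 6.59 to 7.40 against 8.48 to 9.50. In these 3 genes no array without tTA reached the dNLS bigenic range.

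Dach2, a transcription cofactor, read 2.07 to 2.26 in monogenic mice and 4.80 to 6.51 in dNLS bigenic mice. Nontransgenic mouse 6 alone read 5.29, while the other 5 lay between 2.04 and 2.30. Rpp40, a subunit of RNase P, showed the same array apart, at 7.25 against 3.11 to 3.56 in the other 5. Zfp54, a zinc finger gene, read 2.05 to 2.09 in monogenic mice and 2.84 in nontransgenic mouse 6, with 4.41 to 6.11 in dNLS bigenic mice. Eif4ebp1, which restrains cap-dependent translation, ranged from 2.67 to 4.50 in monogenic and from 3.03 to 6.53 in nontransgenic mice. It thus overlapped the dNLS bigenic range of 4.07 to 5.55 without any transgene. Myo7a, an unconventional myosin, stayed at 4.48 to 4.59 and 2.90 to 4.48, below the 5.33 to 6.44 of dNLS bigenic mice.

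In the list lower in dNLS bigenic mice, Spag5, a spindle protein gene, read 8.09, 9.16, 8.02 and 8.21 in monogenic mice. It read 8.27 to 9.49 in nontransgenic and 3.39 to 5.05 in dNLS bigenic mice, and the monogenic difference was -0.66 (95% interval -1.34 to 0.03). Ddit4l, an inhibitor of mTOR signalling, read 10.22 to 11.28 and 10.58 to 11.23 against 6.31 to 8.50. Echdc2, a mitochondrial enzyme gene, read 6.38 to 7.09 in monogenic mice and 5.20 to 6.06 in dNLS bigenic mice, and nontransgenic mouse 6 read 5.40. Egr2, Arc, Btg2 and Ccn1 are early genes that neurons or other cells induce within minutes of stimulation. They overlapped between dNLS bigenic mice and mice without tTA: Egr2 read 8.93 to 11.79 in the 10 arrays without tTA and 4.73 to 9.70 in dNLS bigenic mice. Abi3bp, an extracellular matrix gene, and Pkp2, a desmosome gene, had monogenic differences of -0.27 and 0.08 with intervals more than 2 log2 units wide.

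Over the whole list, all 4 monogenic arrays lay outside the dNLS bigenic range for 18 of the 20 genes of the higher list and 14 of the 20 of the lower list. For the nontransgenic arrays the counts were 12 and 11, and without nontransgenic mice 4 and 6 they were 17 and 13. A single array entered the dNLS bigenic range for 2 to 8 of the 40 genes, except nontransgenic mouse 6 with 13. Both lists were chosen for a large bigenic difference, which favours such separation, and no such count was made over all genes. The monogenic group also has fewer arrays, which makes it easier for all of them to lie outside a range.

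**Figure D3:**
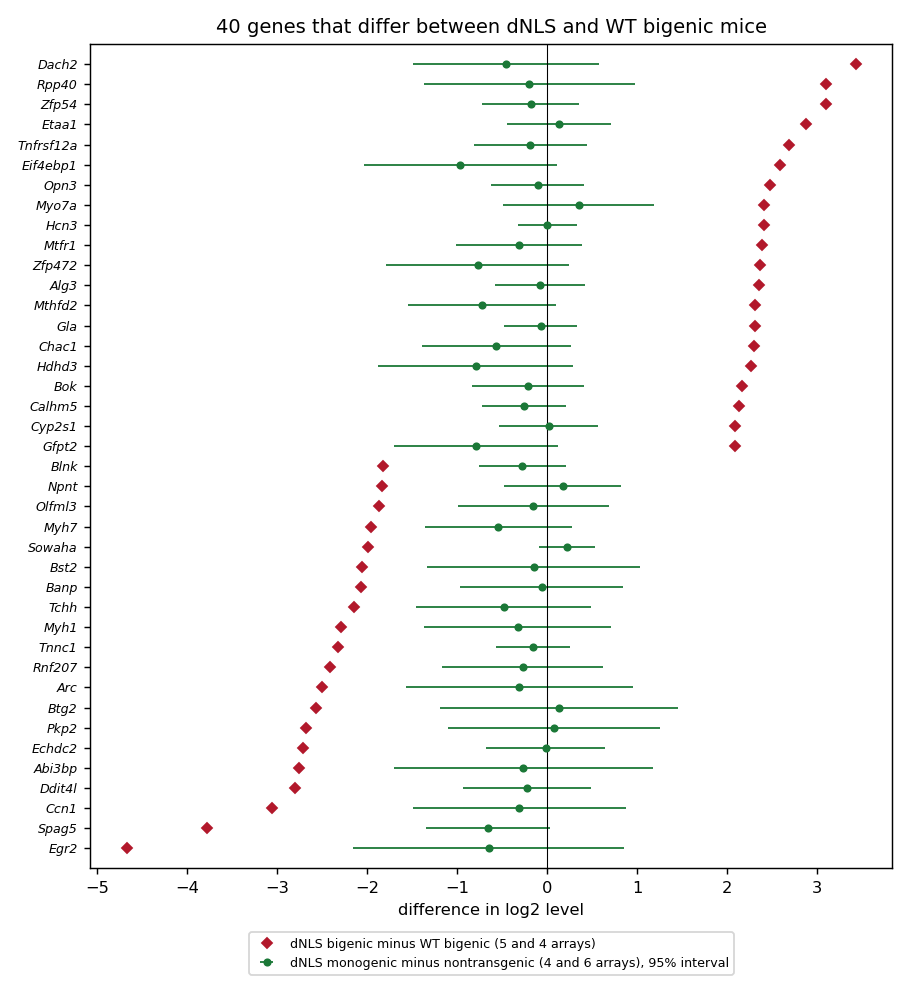
Difference in log2 level (horizontal axis) for the 40 genes of largest bigenic difference (vertical axis): diamonds give dNLS bigenic minus WT bigenic mice, circles with bars monogenic minus nontransgenic mice with the 95% interval. The bigenic difference lies outside the interval for 40 of 40 genes, and for 4356 of all 12393 genes.

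The genes of smallest p are named although none passed the threshold. Kpna4 (importin alpha 3) and Kpnb1 (importin beta 1), which carry proteins with a nuclear localization signal into the nucleus, were both among the 3 higher genes of smallest p. Kpna4 read 11.004, 11.102, 11.047 and 10.978 in monogenic mice and 10.85, 10.91, 10.85, 10.71, 10.81 and 10.80 in nontransgenic mice 1 to 6, and the groups did not overlap. The difference was 0.21 ± 0.05 (SE, limma adjusted p = 0.732), and dNLS bigenic mice read 11.32 to 11.44. The other Kpna4 probe set gave 0.11 (95% interval -0.08 to 0.30) near the lowest value.

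Kpnb1 read 12.071, 12.052, 12.107 and 11.999 in monogenic mice and 11.87, 11.81, 11.88, 11.96, 11.80 and 12.01 in nontransgenic mice, where mouse 6 reached into the monogenic range. The difference was 0.17 ± 0.04 (SE, limma adjusted p = 0.732). Its 3 other probe sets gave 0.15 (95% interval 0.01 to 0.30), 0.09 (95% interval -0.04 to 0.22) and 0.17 (95% interval -0.12 to 0.46). With the beta-actin difference as a covariate, Kpnb1 passed the threshold with 0.22 (limma adjusted p = 0.044), as did Faap20, a gene of the Fanconi anaemia pathway, with 0.35 (limma adjusted p = 0.044). Without the covariate the difference of Faap20, a gene chosen after its values were seen, was -0.17. The 2 WT12 nontransgenic mice read 12.04 and 11.99 for Kpnb1, within the monogenic range.

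Klk6, a secreted serine protease of oligodendrocytes, read 2.10, 2.59, 2.84 and 2.86 in monogenic mice, close to the lowest value on the arrays, 2.04. In nontransgenic mice it read 2.07 to 2.29, a range that holds monogenic mouse 1. The difference was 0.48 ± 0.10 (SE, limma adjusted p = 0.732). Without monogenic mouse 1 it was 0.64 and passed the threshold (limma adjusted p = 0.00015). In dNLS bigenic mice Klk6 read 2.06 to 2.24. The other higher genes of smallest p were Ncoa1, a nuclear receptor coactivator (0.14), Tex261 (0.83), Pcp2 (0.29), Pgm1, which interconverts glucose phosphates (0.35), and Ebf3. Tex261 came to 0.53 and Pgm1 to 0.20 without nontransgenic mice 4 and 6. Ebf3 read 2.04 to 2.06, at or next to the lowest value, on all 10 arrays.

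Of the lower genes, Bnip2 had the smallest p. It read 10.25, 10.35, 10.34 and 10.30 in monogenic mice and 10.51, 10.50, 10.53, 10.59, 10.35 and 10.43 in nontransgenic mice, with a difference of -0.18 ± 0.04 (SE, limma adjusted p = 0.732). Of its other probe sets, 2 gave 0.11 and 0.05. Ndufa4, a subunit of respiratory complex IV, read 12.76 to 12.78 in monogenic and 12.79 to 12.87 in nontransgenic mice, a difference of -0.07. After median centring this difference was 0.0037. Pom121, a membrane nucleoporin, read 11.002 to 11.304 in monogenic and 11.312 to 12.005 in nontransgenic mice, a difference of -0.44. Tspan14 (-0.38), Nelfcd (-0.53), a subunit of the negative elongation factor, Nsun5 (-0.30), an RNA methyltransferase, and Cebpg (-0.26), a bZIP transcription factor, followed.

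Complete separation of the 4 from the 6 arrays, by more than 0.01, was rare. It held for 4 genes that were higher in monogenic mice (0.0323%) and 16 that were lower (0.129%), and without nontransgenic mice 4 and 6 for 17 and 39. The 4 were Erich3, Kpna4, Ncoa1 and Otulinl. Erich3 read 6.10 to 6.52 in monogenic and 5.76 to 6.00 in nontransgenic mice, whereas dNLS bigenic mice read 4.92 to 5.44. In 10 of the 20 genes all dNLS bigenic arrays also lay outside the nontransgenic range, on the monogenic side. The WT12 nontransgenic arrays all lay off the monogenic range on the nontransgenic side in 7 genes, and the WT bigenic arrays in 5. The 20 genes were picked for nontransgenic arrays that lay apart from the monogenic ones. The side on which other groups fell follows in part from that choice. The same counts were not made over all genes, so they describe these genes only.

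Pld4, a lysosomal nuclease of microglia and other immune cells, had the widest gap. It read 4.17, 4.02, 4.02 and 4.19 in monogenic mice and 4.85, 4.90, 5.15, 5.46, 4.93 and 5.99 in nontransgenic mice 1 to 6. The difference was -1.08 ± 0.30 (SE, limma adjusted p = 0.732). In dNLS bigenic mice it read 3.87 to 4.46, in WT bigenic mice 4.21 to 6.31, and in the 2 WT12 nontransgenic mice 5.08 and 4.56. In bulk cortex, fewer cells of a type and less RNA per cell cannot be told apart. The microglia list as a whole was not lower: 8 of its 14 measured genes were above 0, 5 below, 0 were called, and the median difference was 0.07.

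Irf1, an interferon regulatory transcription factor, read 2.97 to 3.02 in monogenic and 3.28 to 4.08 in nontransgenic mice, but 2.82 and 2.71 in the WT12 nontransgenic mice. Adssl1, a muscle form of an AMP synthesis enzyme, read 6.83 to 7.23 and 7.36 to 8.26. Ngdn, Zmat2 and Tmtc4 had smaller gaps, with differences of -0.34, -0.20 and -0.30. By RefSeq positions, Pld4, Adssl1 and Zfp386, another of the 20, lie within 5 Mb of one another on 1 chromosome. As 1 trio they gave 3 of the 11 pairs of these 20 genes that share a chromosome, and no other pair was that close. How often other sets of genes hold such pairs was not counted. Nontransgenic mouse 6 was the highest of the 10 arrays for Pld4, Irf1, Adssl1, Ngdn, Zmat2 and Tmtc4.

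As no gene passed the test, no cell type marker did, and 2 lists of neighbouring tissues had median differences far from 0. Of the measured markers, 0 were called by limma among 12 genes of cortical neurons, 14 of interneurons, 12 of astrocytes, 14 of microglia, 11 of oligodendrocytes, 5 of their precursors, 16 of vessels and 12 of meninges and fibroblasts. Their median differences ran from -0.11 to 0.09, and at an unadjusted p under 0.05 there were 1 of the 14 interneuron genes and 1 of the 12 astrocyte genes, beside 4.3% of all genes. Tbr1, a transcription factor of deep-layer neurons, read 11.68 to 11.95 in monogenic and 11.80 to 11.97 in nontransgenic mice. Mbp, a myelin protein gene, read 14.04 to 14.17 and 13.89 to 14.20, and Gfap, the astrocyte filament gene, 10.20 to 10.60 and 10.18 to 10.72. Slc17a7 and Emx1, markers of cortical excitatory neurons, were not analysed here. Of 7 liver genes, given as a tissue that should be absent, Alb, Cyp2e1, Fabp1 and Hp were at the lowest value on all 10 arrays.

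The first of these lists was the choroid plexus, the tissue of the ventricles that makes cerebrospinal fluid. Its 10 measured markers had a median difference of 0.68, 10 of 10 above 0, 0 called and 0 at an unadjusted p under 0.05. The high readings were those of monogenic mouse 1. Kl, the klotho gene, read 8.37 there and 2.05 in the other 3 monogenic mice, with 2.04 to 2.86 in nontransgenic mice. Kcne2, a potassium channel subunit, read 7.63 and otherwise at most 2.10. Sostdc1 read 7.77, Calml4 7.07, Folr1, a folate carrier, 4.81, and Otx2, a transcription factor of that tissue, 4.83. Ttr, transthyretin, read 14.36 in that mouse and 10.58 to 13.87 in the other 9. Without monogenic mouse 1 the median difference of the list was -0.0045, and 0 of 10 genes were above 0 by more than 0.01.

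The other list was the striatum, which lies beneath the cortex. Its 8 measured markers had a median difference of 0.80, 8 of 8 above 0, 0 called and 1, Pdyn, at an unadjusted p under 0.05. Drd2, the D2 dopamine receptor of striatal output neurons, read 6.78, 4.79, 7.46 and 2.10 in monogenic mice 1 to 4. In nontransgenic mice it read 4.29, 2.65, 2.36, 2.98, 2.27 and 5.55. Rgs9, a regulator of dopamine receptor signalling, followed the same mice, with 10.58, 9.45, 11.12 and 7.34 in monogenic and 7.63 to 10.01 in nontransgenic mice. Ppp1r1b, which encodes DARPP-32, read 10.397, 9.441, 10.943 and 8.998 against 8.11 to 9.56. Pde10a, Penk, Tac1 and Pdyn were also highest in monogenic mouse 3, with monogenic mouse 1 next. Monogenic mouse 4 read the lowest of the 10 for Drd2, Rgs9 and Pde10a. Without monogenic mice 1 and 3, the median difference was -0.07, with 3 genes above and 5 below 0. Drd1 and Adora2a were not analysed here.

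Stress and signalling lists held no call either, as 0 of all 12393 genes were called. None of the measured genes was called among 28 activity-regulated genes, 16 clock genes, 19 glucocorticoid-responsive genes, 19 genes of the integrated and endoplasmic reticulum (ER) stress responses, 13 p53 targets, 14 heat shock genes, 15 interferon and MHC class I genes, 14 reported TDP-43 targets and 18 genes linked to amyotrophic lateral sclerosis or frontotemporal dementia. Several of these lists leaned to lower values, as did all genes, with 5297 below 0 and 3405 above. The ER and integrated stress list had 14 of 19 genes below 0, 2 above and a median of -0.11. Heat shock genes had 11 below and 3 above, activity-regulated genes 17 and 6, and glucocorticoid-responsive genes 11 and 5. The clock, p53, interferon, TDP-43 target and disease gene lists had more genes above 0 than below. These counts were not made after median centring. At an unadjusted p under 0.05, beside 4.3% of all genes, were 1 of 28 activity-regulated genes, Nptx2, and 2 of 16 clock genes, Arntl (-0.39) and Nfil3 (-0.70). So were 1 of 19 stress genes, Hsp90b1 (-0.22), and 2 of 14 heat shock genes, Hspa1a (-0.85) and Dnaja1 (-0.12). All 6 were lower in monogenic mice, as were 356 of the 533 genes at that p over all genes, or 196 of 546 after median centring. Nptx2, a secreted synapse protein of active neurons, had a difference of -0.99 (95% interval -1.73 to -0.25, limma adjusted p = 0.732). It read 8.72, 9.94, 8.79 and 8.57 in monogenic mice and 9.35 to 10.57 in nontransgenic mice. The 2 WT12 nontransgenic mice read 8.48 and 8.99. Of the TDP-43 targets, Grn, the progranulin gene, gave -0.40 and Poldip3 -0.23, with intervals across 0.

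The spread between mice of 1 genotype is given here for the monogenic and nontransgenic arrays alone, without a sex term. The test used a spread estimated over all 21 arrays with a sex term. The values below therefore describe the mice and do not by themselves set what could be detected. The pooled within-group standard deviation (SD, 8 degrees of freedom) had a median of 0.26 log2 units over the 8549 genes above the lowest value. Without nontransgenic mice 4 and 6 it was 0.17. Monogenic mice varied by a median SD of 0.15 and nontransgenic mice by 0.29, which fell to 0.16 without those 2 mice. An SD over 1 was found in 250 genes, and in 48 without them. Of the tissue and pathway lists, heat shock genes had the lowest median SD (0.12), and choroid plexus (1.51, 2 genes), blood (0.80), striatum (0.68), meninges and fibroblasts (0.65) and activity-regulated genes (0.63) the highest. For genes linked to amyotrophic lateral sclerosis or frontotemporal dementia the median SD was 0.27 with all arrays and 0.11 without nontransgenic mice 4 and 6.

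**Figure D4:**
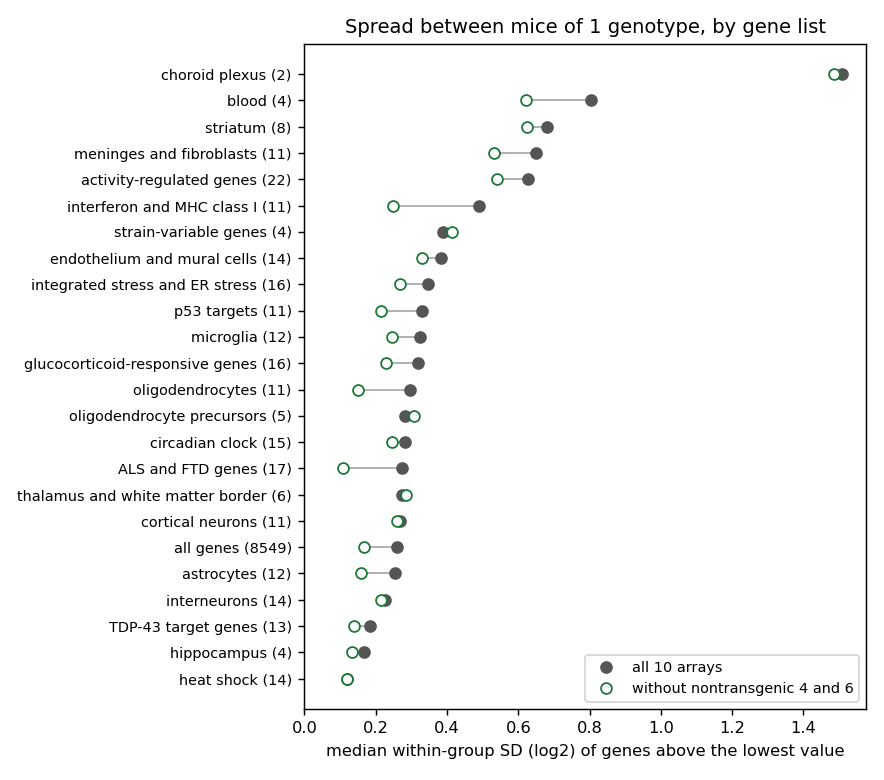
Median within-group SD in log2 units (horizontal axis) of each gene list (vertical axis, with the number of its genes above the lowest value), for all 10 arrays (filled) and without nontransgenic mice 4 and 6 (open). Over all genes the median goes from 0.26 to 0.17, and heat shock genes stay at 0.12.

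Several neuronal transcripts with a wide spread were lowest in the arrays of largest beta-actin difference. Mapk8ip1, a scaffold of JNK signalling, read 9.26 to 11.08 in monogenic mice and 10.35, 9.40, 10.17, 5.32, 11.14 and 2.35 in nontransgenic mice 1 to 6. Camk2a, the kinase of excitatory synapses, read 10.21, 6.57, 10.06 and 10.56 in monogenic mice, and 5.13 and 2.64 in nontransgenic mice 4 and 6. Kif1a, a motor of axonal transport, and Ntrk3, the neurotrophin-3 receptor, read 2.17 and 2.07 in nontransgenic mouse 6 and at least 8.01 elsewhere. Of the 20 genes of highest SD, 12 had their lowest reading in nontransgenic mouse 6, the array of largest beta-actin difference. Neuronal lists did not all go that way in this mouse. Its mean level was the lowest of the 10 arrays for the cortical neuron list, at 8.29. For the interneuron list it was the highest, at 10.01. Monogenic mouse 2, with the highest beta-actin difference of its group, had the lowest Camk2a, Kif1a, Mapk8ip1 and Ntrk3 of that group. The part of transcript length or probe position in these values was not tested.

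When the 2 arrays were left out, 11 of the 20 genes of highest SD were still among the 20 highest. Tmem87a, a Golgi membrane protein gene, took 2 levels. It read 4.27, 9.15, 3.26 and 4.39 in monogenic mice and 9.588, 3.258, 9.996, 9.163, 10.077 and 3.268 in nontransgenic mice. Ecrg4 read 9.85 in monogenic mouse 1, the mouse with high choroid plexus genes, and 2.05 to 2.84 in the other 9. Nts, neurotensin, read 10.14 and 10.27 in monogenic mice 1 and 3 and 5.43 to 9.56 in the other 8. Mt3, a brain metallothionein, spread from 3.48 to 9.11 over both groups.

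Baiap2l1 and Alad also took 2 levels, and those of Baiap2l1 crossed the genotypes. Baiap2l1, chosen after its values were seen, read 7.47, 8.76, 6.41 and 2.05 in monogenic mice and 7.15, 8.06, 2.04, 8.72, 2.04 and 2.15 in nontransgenic mice. H2-K1 and H2-D1, classical MHC class I genes, were highest in the same 3 mice, which came from both genotypes. The other 7 mice were spread widely, so 2 separate levels were not clear for these genes. H2-K1 read 9.27 in monogenic mouse 2 and 9.13 and 9.18 in nontransgenic mice 3 and 5, and 6.89 to 8.12 in the other 7. H2-D1 read 9.40, 9.32 and 9.50 in those 3 and 6.78 to 8.37 in the other 7. Alad, a heme synthesis enzyme whose copy number differs between mouse strains, read 8.86 and 9.05 in monogenic mice 1 and 4 and 10.09 to 10.95 in the other 8. Among the 10 arrays its low level was thus found in monogenic mice alone, while the 2 WT12 nontransgenic mice read 8.80 and 9.16. In a list of 6 genes that vary between mouse strains, 0 were called. Of these, 2, Nnt and Alad, were lower in monogenic mice at an unadjusted p under 0.05, beside 4.3% of all genes. The mixed background of the mice could let strain alleles differ between them, and genotypes at these genes were not tested.

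The neutrophil genes S100a9 and S100a8 and the acute-phase gene Lcn2 were high in 1 or 2 nontransgenic mice. The blood list as a whole is not described by them. Of its 7 measured genes, Hba-a1, a hemoglobin gene, was at the lowest value on all 10 arrays, and the others are not given here. S100a9, a neutrophil gene, read 2.85 to 5.36 in monogenic mice and 9.11 and 8.36 in nontransgenic mice 3 and 4, with 3.45 to 4.44 in the other 4. S100a8, its partner, read 5.65 and 3.66 in the same 2 mice and 2.04 to 2.05 in the other 8. Lcn2, a secreted acute-phase protein gene, read 9.52 in nontransgenic mouse 3 and was at the lowest value in the other 9. Nontransgenic mouse 3 also had the highest Sdf2l1, Pdia4 and Hspa1a, at 9.42, 10.81 and 4.89. Sdf2l1 and Pdia4, chaperones of the ER, were next highest in monogenic mouse 1, at 9.21 and 10.43. Hspb1, a small heat shock protein gene, ranged from 5.098 to 7.997 in monogenic and from 6.08 to 9.30 in nontransgenic mice.

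Activity-regulated genes differed between mice of both groups. Arc, a synaptic immediate early gene, read 12.001, 10.753, 10.957 and 11.306 in monogenic mice and 12.38, 11.34, 12.55, 12.13, 8.97 and 11.65 in nontransgenic mice. Nontransgenic mouse 5 had the lowest Arc and Egr2 of the 10. Trib1, a pseudokinase gene, ran from 2.98 to 6.93 in monogenic and from 2.52 to 6.53 in nontransgenic mice. The clock genes Per1 and Per2 ranged over 8.09 to 10.45 and 8.78 to 10.31, with their highest readings in nontransgenic mouse 3. The hour of sampling is not in the labels.

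**Figure D5:**
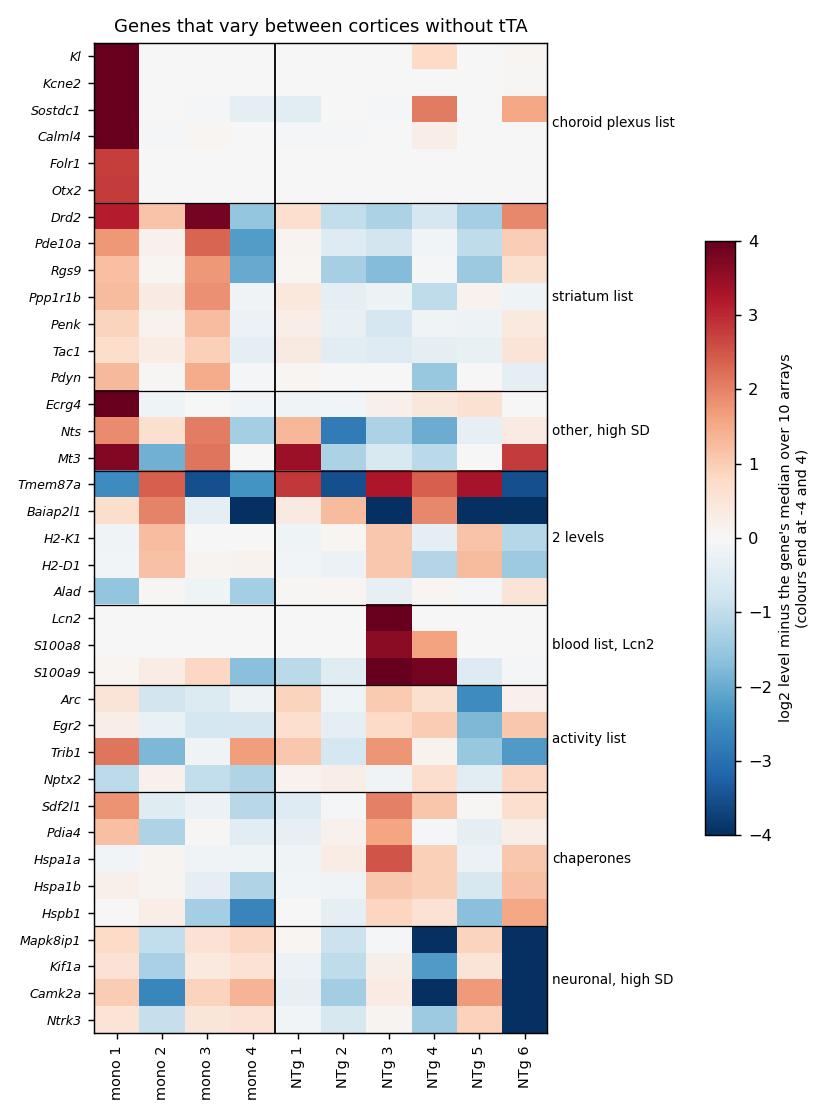
Log2 level of named genes (rows, grouped at the right) in the 4 monogenic and 6 nontransgenic (NTg) mice (columns), as the difference from the gene's median over the 10 arrays (colour scale from -4 to 4). Single mice stand out by block, such as monogenic mouse 1 for choroid plexus genes. Nontransgenic mouse 6 stands out for the neuronal genes Mapk8ip1, Kif1a, Camk2a and Ntrk3, which were named for a high SD.

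The same fit also gave the difference between sexes over all 21 arrays. Females and males by label differed in 3 genes (0.0242%): Xist, the RNA of the inactive X chromosome, by 8.98, and the Y-linked Eif2s3y and Kdm5d by -8.69 and -3.85 (female minus male). Nontransgenic mouse 1, labelled male, read 11.97 for Xist and 2.04 for Eif2s3y, as the labelled females did. With sex read from these genes, 5 were called, Uty (-0.99) and Eif2s3x (0.30) being the other two. The comparison of monogenic with nontransgenic mice then still had 0 calls.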

How the data were processed

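The deposited values are log2 levels of 22690 probe sets on Affymetrix MOE430A 2.0 arrays. The submitters' processing notes name Partek, with no version or role. How background was corrected and how probes were normalized and summarized was not given in the sources used here. The log base is not named and was inferred from the range, 2.04 to 15.08. Between 30.7% and 32.4% of an array's probe sets shared the lowest value, which compresses differences there. Probe sets with 1 gene symbol (20380, against 691 with several and 1555 with none) were kept, 64 controls were left out, and each of 12393 genes took its probe set of highest mean over 21 arrays. Of these, 3004 were at the lowest value on all 10 arrays.

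The model held 5 groups and sex by label, used all 21 arrays and was fitted by R 4.3.3 with limma 3.58.1 (lmFit, eBayes with intensity trend). P-values were adjusted by Benjamini-Hochberg over all genes, or over 22626 probe sets for single probe sets, with a threshold of 0.05. The script was tested on simulated data. Each array has its own sample number in its title and was taken as 1 mouse, and p-values measure the spread between these mice. Array measures were compared by exact permutation over 210 splits. The number of arrays limits the precision.

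The comparison, the 26 gene lists and the tests were chosen with earlier results of these data known. The rule for named genes took those of smallest p, widest gap and largest difference between dNLS and WT bigenic mice in each direction, those of highest within-group SD with and without nontransgenic mice 4 and 6, the first of each list, Tardbp, Prnp and the sex genes. Part of these is printed. Alternatives changed the arrays, covariates, scaling, filter and variance model.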

Additional observations from a re-analysis of the deposited data

Results flagged for a closer look

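Of 212 groups of 4 or 6 arrays examined (99 genes and 7 array measures in each genotype), 48 held 1 array far from the others by Dixon's criterion. Chance alone marks about 1 in 20 groups, but genes of 1 array are not independent of each other. Many of the 99 genes were named for a wide spread, a gap between groups or sex linkage, so the 48 cannot be read against that rate.

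Monogenic mouse 2 stood apart in 13 measures. Its beta-actin and Gapdh 3' minus 5' differences were 3.13 and 1.79, its first component score was 4.82 and its median level 7.70, all above the other 3. Spag5, Nptx2 and H2-K1 were high, at 9.16, 9.94 and 9.27. Echdc2, Tex261, Mapk8ip1, Camk2a, Kif1a and Ntrk3 were low, at 6.38, 6.82, 9.26, 6.57, 9.22 and 8.53.

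Monogenic mouse 1 stood apart by high choroid plexus genes. Kl read 8.37, Kcne2 7.63, Sostdc1 7.77, Calml4 7.07, Folr1 4.81 and Otx2 4.83. Ecrg4, at 9.85, was also high there, and Mbp was low, at 14.04. Ccn1 was low in monogenic mouse 3, at 7.29, and Adssl1 in monogenic mouse 4, at 6.83. Monogenic mouse 4 was the 1 female of its group, which gave Xist 12.05, Eif2s3y 2.04 and Kdm5d 2.04.

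Nontransgenic mouse 6 stood apart in its Gapdh 3' minus middle and 3' minus 5' differences, 1.82 and 5.04, and in its share of probe sets at the lowest value, 30.7%. Dach2, Rpp40 and Ngdn were high in it, at 5.29, 7.25 and 10.16. Echdc2, Ncoa1, Otulinl, Kif1a and Ntrk3 were low, at 5.400, 11.96, 6.53, 2.17 and 2.07.

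In nontransgenic mouse 5, Prnp, Myo7a, Arc and Ccn1 were low, at 13.38, 2.90, 8.97 and 7.49. In nontransgenic mouse 4, Tnfrsf12a, Kl and Calml4 were high, at 4.51, 2.86 and 2.36, and Pdyn was low, at 5.09. Lcn2 and Pdia4 were high in nontransgenic mouse 3, at 9.52 and 10.81, and Klk6 in nontransgenic mouse 1, at 2.29.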

How the results depend on the processing

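Genes called numbered 0, but 2 with the beta-actin difference as covariate and 1142 with array weights. Leaving out single arrays gave 0 to 1, the 1 being Klk6 without monogenic mouse 1. Genes at an unadjusted p under 0.05 ranged from 246 without monogenic mouse 1 to 2355 without nontransgenic mouse 5, and over the other settings from 151 with the 10 arrays only to 3099 with array weights. Tardbp probe set A was 0.00044 with the 10 arrays only, 0.0069 without the sex term and -0.064 to 0.046 with single arrays left out. Probe set B ranged from -0.27 to -0.12, C from 0.17 to 0.60 and D from 0.22 to 0.47 in those settings. With the beta-actin covariate B was -0.12 and C -0.0035, and with array weights B was -0.053 and D 0.52. Probe set B was -0.21 with the 8 nontransgenic arrays of both lines and -0.25 after median centring. Without nontransgenic mice 4 and 6, B was -0.10, C 0.099 and D 0.19. Prnp ranged from -0.016 to 0.042 with single arrays left out, and was 0.097 after median centring and 0.31 as the mean of its probe sets. Ndufa4 was 0.0037 after median centring. Of 367 comparisons over 16 named genes and 23 settings, 349 kept direction and side of the threshold, 17 newly passed it, 15 of these with array weights, and 1 reversed.

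Without nontransgenic mice 4 and 6 the second component differed by -7.16, the median SD was 0.17 and 56 genes did not overlap. With single arrays left out these ranged from -3.66 to 10.3, from 0.20 to 0.27 and from 25 without nontransgenic mouse 2 to 309 without monogenic mouse 2. Fewer arrays in a group make separation easier by construction. The first component ranged from -32.9 to -15.7 and the beta-actin difference between groups from -2.17 to -0.83. Sex as read gave 5 calls in place of 3. The choroid plexus and striatum settings were chosen after the data were seen. For other shifts the cause was not tested. No paired analysis was possible because no replicate number links mice of the groups.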
